A study of Mus musculus with 6 samples.

Results

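Fibroblast growth factors (FGFs) and their receptors were followed in mouse retina, in RNA recovered by pull-down with an antibody to the HA tag. The genes are 10 named members, Fgf1, Fgf2, Fgf9, Fgf10, Fgf12, Fgf13, Fgf18, Fgfr1, Fgfr2 and Fgfr3, of 55335 genes in the deposited count files, found by symbol. They were selected on measured values of this same contrast, their difference between the naive and SOHU libraries, so that difference is given as a description and supports nothing. Retinas came from wild-type C57BL/6 mice aged 10 weeks, and the labelled cell type is the retinal ganglion cell, the output neuron of the retina. The 3 naive libraries were compared with 3 libraries of silicone oil-induced ocular hypertension (SOHU), a glaucoma model in which oil in the anterior chamber raises eye pressure, with retinas taken 1 week after injection. The labels name neither the HA-tagged protein nor the promoter that drives it, and they leave unsaid if each library is its own animal or a pool. The spread between libraries may therefore be technical.

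Secreted FGFs bind receptor tyrosine kinases together with heparan sulfate, a sulfated sugar chain on cell surface proteins, and the activated receptor signals through the adaptor FRS2 to RAS and ERK. ERK in turn raises transcription of its own inhibitors, among them the Sprouty genes. The intracellular FGFs, such as Fgf12 and Fgf13, are not secreted and do not signal in this way: they bind the tail of voltage-gated sodium channels and alter their gating. In the retina, Fgf2 is known to be made by Müller glia after injury, and FGF receptors occur on glia and on neurons.

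The members with a changed level and a promoter window used here (RefSeq, build GRCm38.p6) are Fgf2, Fgf10, Fgf12 and Fgf18. The stretch from 250 bases before to 50 after their first listed start site is shown, because the results turn partly on these genes. Capitals mark GGGCGG, the GC box, on either strand.
Fgf2, chr3:37348403-37348702, plus strand: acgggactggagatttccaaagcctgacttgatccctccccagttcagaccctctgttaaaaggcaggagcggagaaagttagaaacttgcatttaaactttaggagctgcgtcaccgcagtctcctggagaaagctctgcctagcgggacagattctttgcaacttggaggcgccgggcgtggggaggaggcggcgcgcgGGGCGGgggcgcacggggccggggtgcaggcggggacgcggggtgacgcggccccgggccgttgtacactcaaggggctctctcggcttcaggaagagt
Fgf10, chr13:118714449-118714748, plus strand: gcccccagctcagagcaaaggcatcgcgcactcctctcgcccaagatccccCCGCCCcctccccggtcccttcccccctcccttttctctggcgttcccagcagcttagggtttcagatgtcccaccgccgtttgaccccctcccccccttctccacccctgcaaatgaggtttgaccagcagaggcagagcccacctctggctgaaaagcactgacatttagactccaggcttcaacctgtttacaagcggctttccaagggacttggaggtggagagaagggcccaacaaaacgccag
Fgf12, chr16:28753194-28753493, minus strand: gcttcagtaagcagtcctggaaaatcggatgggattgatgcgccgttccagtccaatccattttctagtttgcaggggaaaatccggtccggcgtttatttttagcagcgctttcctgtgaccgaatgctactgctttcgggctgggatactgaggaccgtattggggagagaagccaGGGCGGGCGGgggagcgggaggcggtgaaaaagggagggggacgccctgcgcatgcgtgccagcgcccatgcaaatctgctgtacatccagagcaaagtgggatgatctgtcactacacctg
Fgf18, chr11:33147351-33147650, minus strand: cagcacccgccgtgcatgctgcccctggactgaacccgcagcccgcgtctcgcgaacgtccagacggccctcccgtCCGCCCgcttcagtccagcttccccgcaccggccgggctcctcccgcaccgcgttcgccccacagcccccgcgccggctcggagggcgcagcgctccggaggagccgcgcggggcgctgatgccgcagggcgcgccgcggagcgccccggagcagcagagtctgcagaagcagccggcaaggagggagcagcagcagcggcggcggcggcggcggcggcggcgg
These 4 windows held 24, 10, 18 and 47 CpG dinucleotides, where the median over 32851 promoters of the table was 7. The GC content was 62.7% for Fgf2, 60.7% for Fgf10, 56.3% for Fgf12 and 78.7% for Fgf18, against a median of 52.7%. A GC box was present in all 4, and in 35.7% of all promoters of this length. In Fgf12 a pair of them overlap in the run GGGCGGGCGG. Also searched on either strand were TATAAA (the TATA box, in 13.6% of all promoters), TGANTCA (AP-1, 7.81%), TTCNNNGAA (STAT, 8.30%) and TGACGTCA (the cAMP response element, 1.79%). None of these letters stood in the 4 windows shown. Of the further Fgf12 windows, number 3 held 1 STAT site, and number 4 held 1 AP-1 site and no GC box. The 4 genes thus shared GC-rich first listed starts whether their level was higher or lower in SOHU. Members not past the threshold varied: the Fgf9 window had 42.7% GC and no GC box and the Fgfr2 window 43.7% GC and none, while the Fgfr3 windows had 69.7 and 73.0% GC with 4 and 2 GC boxes. The Fgf13 windows ranged from 40.3 to 74.3% GC, and the most GC-rich held 4 GC boxes. GC-rich starts thus occurred among members past the threshold and among members not past it. Windows were used for 8 of the 10 members. Fgf1 and Fgfr1, both past the threshold, had none in this comparison, so their promoters were not examined. This does not mean that RefSeq lists no start for them. Several start sites were listed for Fgf12 (4), Fgf13 (4) and Fgfr3 (2). Gene counts do not show which start was used.

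The 10 genes lie on 10 different chromosomes, so none is a neighbour of another. Fgf12 spans 592971 bases of chromosome 16 (28160098 to 28753068, minus strand, mm10) and Fgf13 505927 bases of X (59062145 to 59568071, minus strand). The secreted FGFs span 29971 bases (Fgf18) to 122325 bases (Fgf10). Fgf2 (chromosome 3, 37348346 to 37410108, plus strand) shares 640 exon bases, 9.44% of its exon length, with Nudt6 on the opposite strand. Nudt6 had 74 to 84 reads in the naive libraries and 79 to 122 in the SOHU libraries, fewer than Fgf2 in each. Fgfr2 is modelled in the files over 2960900 bases of chromosome 7 (130162451 to 133123350, minus strand), far beyond its RefSeq start, and shares 314 exon bases with Ctbp2 on the same strand. Ctbp2 had 13390 reads over the 6 libraries, against 459 for Fgfr2. The value of Fgf2 is uncertain because strand use in the counting is not stated, and that of Fgfr2 because strand could not separate it from Ctbp2 in the shared bases.

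The libraries held 21691354 to 26824919 counted reads. All 15 retinal ganglion cell markers had at least 10 reads in every library. They made up 0.414 to 0.676% of the reads in naive and 0.201 to 0.293% in SOHU libraries. All 15 had negative log2 fold changes, and 14 of 15 were lower at an edgeR adjusted p under 0.05, beside 5.93% of all genes tested. The 12 markers of Müller glia and astrocytes, the main glia of the retina, made up 1.04 to 1.32% and 1.87 to 3.32%. All 11 tested had positive log2 fold changes, and 7 of 11 were higher at that threshold, beside 8.02% of all genes tested. Rod markers made up 0.466 to 0.554% and 0.415 to 0.656%, amacrine and horizontal cell markers 0.180 to 0.201% and 0.0965 to 0.140%, and bipolar cell markers 0.0534 to 0.0809% and 0.0607 to 0.0766%. Vascular markers made up 0.0350 to 0.0412% and 0.0776 to 0.101%. Most of these reads came from Kdr, with 6095 to 7204 in naive and 13815 to 20588 in SOHU libraries. Endothelial Cdh5 had at most 2 reads in a library and Pecam1 at most 13. Microglia (0.000507 to 0.00241% and 0.00259 to 0.00763%), fibroblast, lens and pigment epithelium markers stayed at or below 0.00763% in every library. The pull-down thus held RNA of several cell types in both groups. Naive replicate 1 stood apart from the other naive libraries, with the highest ganglion cell share and the lowest Müller glia share.

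Of the 10 genes, all were tested among 17687 genes that passed the filter on low counts. Fgfr3 passed through its SOHU libraries, since only 1 naive library had 10 or more of its reads. With libraries scaled by TMM, a method that sets the bulk of genes equal between libraries, Fgf2 and Fgfr1 were higher in SOHU and Fgf1, Fgf10, Fgf12 and Fgf18 lower, each past the threshold (Benjamini-Hochberg adjusted p under 0.05 over all genes, edgeR quasi-likelihood test). When the summed reads of the ganglion cell markers were used for scaling, Fgf1, Fgf10 and Fgf12 were no longer lower, at log2 fold changes of 0.18, 0.19 and 0.076. Only 2 of all 17687 genes tested were called lower in that scaling. Under TMM scaling 2 of 10 were thus higher and 4 of 10 lower, beside 8.02% and 5.93% of all genes tested (13.9% in either direction). Groups did not overlap for 3 members on the higher side and 5 on the lower side, beside 19.3% and 19.7% of all genes (39% in either direction). The median log2 fold change of the members was -0.30 (-0.58 without SOHU replicate 2), against 0.01 for all genes. Since the choice of members used this contrast, nothing is read from these shares. In bulk samples, fewer cells of a type and less RNA per cell cannot be told apart.

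**Figure D1:**
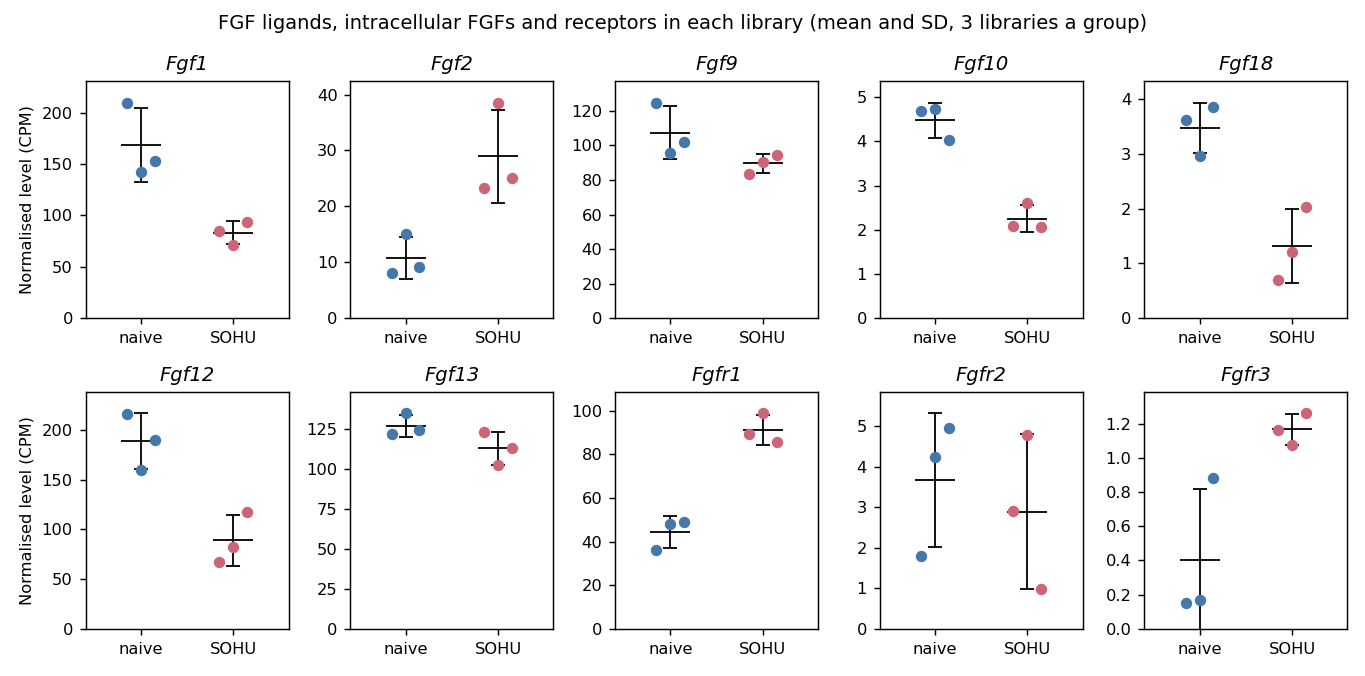
Normalised level of each member in CPM (reads of the gene per fixed number of reads in the scaled library, y axis from 0) in the 3 naive (blue) and 3 SOHU (red) libraries under TMM scaling, with the mean (long bar) and SD. All SOHU libraries lie above all naive libraries for Fgf2, Fgfr1 and Fgfr3 and below them for Fgf1, Fgf9, Fgf10, Fgf12 and Fgf18, while Fgf13 and Fgfr2 overlap. Scaled to ganglion cell markers, the log2 fold changes of Fgf1, Fgf9, Fgf10 and Fgf12 lie above 0.

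Levels were compared between genes per exon length, in TPM, which divides reads by exon length and sets each library to the same sum. In naive libraries the order by mean was Fgf13 (94.6 ± 7.85 TPM), Fgf1 (91.8 ± 16.7), Fgf12 (90.7 ± 10.8) and Fgf9 (68.8 ± 7.69), then Fgfr1 (13.5 ± 2.57), Fgf18 (8.74 ± 1.04), Fgf2 (4.77 ± 1.80), Fgf10 (2.91 ± 0.265), Fgfr2 (1.07 ± 0.497) and Fgfr3 (0.169 ± 0.175; SD, n = 3 each). Ranges of Fgf13, Fgf1 and Fgf12 overlapped, so these leading genes could not be ordered. In SOHU libraries the order was Fgf13 (82.6 ± 5.78 TPM), Fgf9 (56.8 ± 5.90), Fgf1 (45.0 ± 7.04), Fgf12 (42.6 ± 13.9), Fgfr1 (27.2 ± 2.28), Fgf2 (12.6 ± 3.80), Fgf18 (3.31 ± 1.80), Fgf10 (1.44 ± 0.214), Fgfr2 (0.819 ± 0.546) and Fgfr3 (0.480 ± 0.0506; SD, n = 3 each). There the ranges of Fgf9, Fgf1 and Fgf12 overlapped. Fgf2 moved from below Fgf18 to above it, and these 2 genes did not overlap within either group.

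Among the secreted FGFs, Fgf1, the acidic FGF that binds all FGF receptors, was the most abundant in naive libraries. Its level was 209.8, 143 and 153 CPM in naive replicates 1 to 3 and 85.3, 71.1 and 93.9 CPM in SOHU replicates 1 to 3. Every SOHU library lay below every naive library, and the mean was 2.02-fold lower (log2 fold change -1.01, SE 0.18). Fgf9, a secreted FGF of neurons that prefers the splice form c of Fgfr3, had 125, 95.4 and 102 CPM in naive and 83.6, 90.6 and 94.3 CPM in SOHU libraries. The groups did not overlap, but the highest SOHU library was close to the lowest naive one. For Fgf9 the log2 difference was -0.26 (SE 0.14), with a 95% interval of -0.58 to 0.05, which did not pass the threshold.

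Fgf2, the basic FGF, went the other way. It had 8.01, 15.04 and 9.20 CPM in naive and 23.3, 38.6 and 25.1 CPM in SOHU libraries. The highest naive and the highest SOHU library are the replicates numbered 2. The mean was 2.70-fold higher in SOHU (log2 fold change 1.43, SE 0.28). Scaled to the ganglion cell markers, the value was 2.56 (SE 0.38). That scaling moved the median of all genes from 0.01 to 1.18, so the second value adds no separate evidence of a rise. As a share of the summed TPM of the 18 secreted FGF genes in the files, Fgf2 made up 1.45, 3.64 and 2.05% in naive and 7.73, 12.5 and 7.21% in SOHU libraries. Fgf1 made up 47.3, 42.9 and 42.4% and then 35.03, 28.7 and 33.5%, and Fgf9 33.0, 33.7 and 33.1% and then 40.4, 43.0 and 39.6%. The Fgf1 level per length was 11.8 to 32.5 times that of Fgf2 in naive libraries and 2.29 to 4.65 times in SOHU libraries. These shares do not depend on the scaling of the libraries. The summed secreted FGF level was 234.8, 187 and 199 TPM in naive and 125, 135 and 157 TPM in SOHU libraries, lower in every SOHU library.

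Fgf10, a ligand of the splice form b of Fgfr2 best known from lung and limb growth, and Fgf18, a ligand of the Fgf8 subfamily known from bone and lung, were rare. Fgf10 had 122, 110 and 91 reads in naive and 50, 58 and 51 in SOHU libraries (4.70, 4.73 and 4.02 against 2.08, 2.60 and 2.07 CPM). The groups were well apart, with a log2 fold change of -0.99 (SE 0.25). Fgf18 had 94, 69 and 87 reads in naive and 17, 27 and 50 in SOHU libraries (3.62, 2.96 and 3.85 against 0.706, 1.21 and 2.03 CPM). Its SOHU libraries were spread over a wider relative range than its naive ones, with a coefficient of variation of 50.8% against 13.2%. The log2 fold change of Fgf18 was -1.40 (SE 0.39). It was -1.84 without SOHU replicate 3 and -1.10 without SOHU replicate 1. Scaled to ganglion cell markers, Fgf18 was the only member with a negative value, -0.28 (SE 0.52), and it did not pass.

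The intracellular FGFs differed from each other. Fgf12 had 216, 160.0 and 190.3 CPM in naive and 67.5, 82.4 and 117 CPM in SOHU libraries. No SOHU library reached the naive range, and the mean was 2.12-fold lower (log2 fold change -1.08, SE 0.21). Fgf13, which also binds microtubules in developing neurons, had 122, 135 and 124 CPM in naive and 123, 103 and 113 CPM in SOHU libraries. SOHU replicate 1 lay inside the naive range, and the log2 difference of -0.17 (SE 0.13) had a 95% interval of -0.45 to 0.11. Per length, Fgf12 stood at 1.15, 0.768 and 0.991 times the level of Fgf13 in naive libraries and at 0.355, 0.520 and 0.671 times in SOHU libraries. These ratios did not overlap and are free of the scaling of the libraries. Fgf11, a further intracellular FGF that is no member, stood at -0.66 on the log2 scale (SE 0.20, edgeR adjusted p = 0.0567), and Fgf14 at -0.51 (SE 0.36, adjusted p = 0.372). Within the summed TPM of the 4 intracellular genes, Fgf13 made up 26.7, 35.8 and 31.0% in naive and 50.8, 39.8 and 35.3% in SOHU libraries, where SOHU replicate 3 stayed within the naive range.

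**Figure D2:**
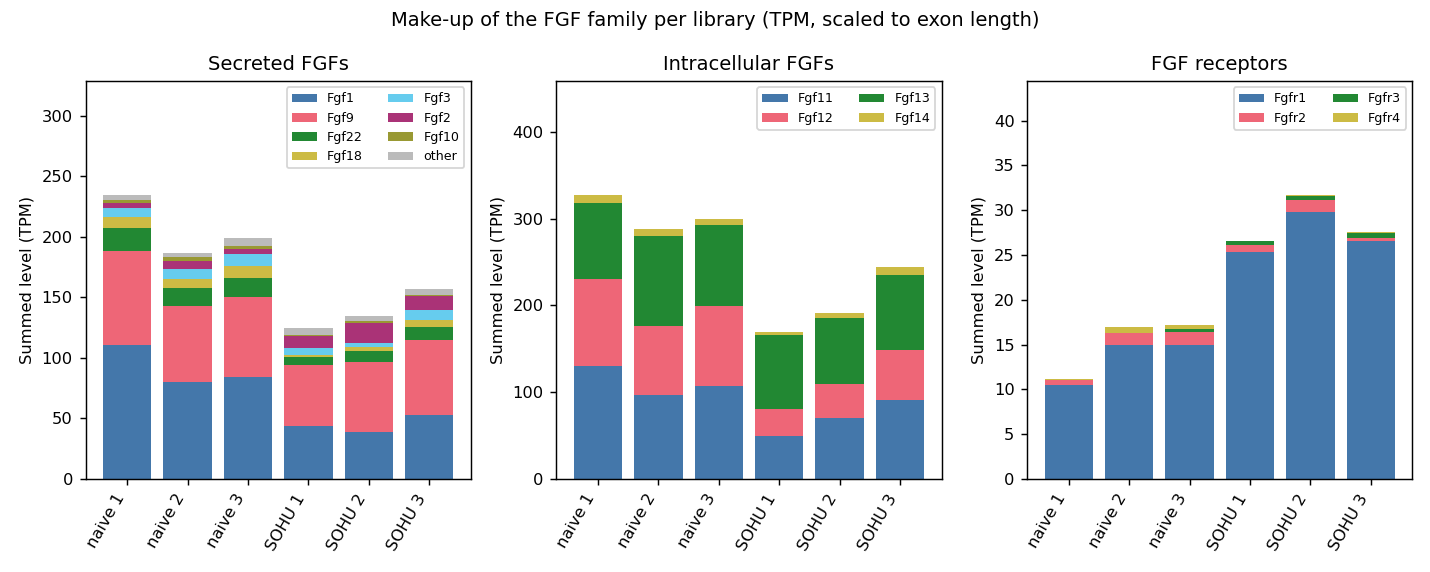
Stacked level in TPM of secreted FGFs, intracellular FGFs and FGF receptors in each library, with 1 colour a gene and an axis of its own for each panel. Fgf1 and Fgf9 make up most of the secreted FGFs in every library, Fgf12 is smaller relative to Fgf13 in SOHU libraries, and Fgfr1 makes up at least 87.0% of the summed level of Fgfr1 to Fgfr4 in every library (Fgfrl1, which has no kinase, is not drawn).

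Among the 4 kinase receptors, Fgfr1 was by far the most abundant. It had 36.0, 48.3 and 49.0 CPM in naive and 89.2, 98.9 and 85.8 CPM in SOHU libraries. The lowest SOHU library was well above the highest naive one, and the mean was 2.06-fold higher (log2 fold change 1.04, SE 0.16). The value was 2.18 (SE 0.34) when scaled to the ganglion cell markers, where the median of all genes was 1.18. Fgfr1 made up 87.0 to 94.1% of the summed TPM of the 4 receptor genes in naive and 93.8 to 96.2% in SOHU libraries. Fgfr2 had 47, 99 and 112 reads in naive and 70, 107 and 24 in SOHU libraries, so that its groups overlapped. The log2 fold change of Fgfr2 was -0.34 (SE 0.53), and 0.086 without SOHU replicate 3. Fgfr3 had 4, 4 and 20 reads in naive and 28, 24 and 31 in SOHU libraries. All SOHU libraries were above all naive ones, yet naive replicate 3 was near them, and the log2 fold change of 1.54 (SE 0.65) did not pass the threshold. It was 2.79 without naive replicate 3. Fgfr4 had at most 17 reads in a library and was not tested.

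**Figure D3:**
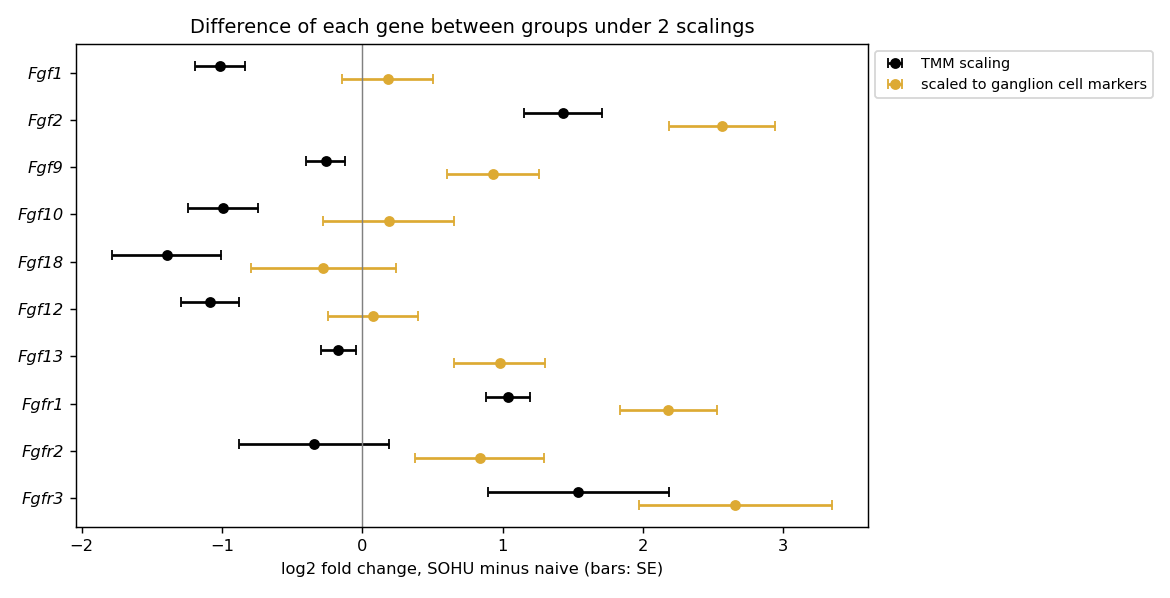
Log2 fold change (SOHU minus naive, x axis) of each member with its standard error, under TMM scaling (black) and with libraries scaled to 15 ganglion cell markers (yellow). The second scaling moves every gene up by about the same amount and takes Fgf1, Fgf9, Fgf10, Fgf12, Fgf13 and Fgfr2 from below to above 0, while Fgf2, Fgfr1 and Fgfr3 stay above it.

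Cell type markers also differed between the groups, and their values stand beside those of the members here. The median over ganglion cell markers was -1.08 on the log2 scale, close to the -1.01 of Fgf1, the -0.99 of Fgf10 and the -1.08 of Fgf12. Scaled to these markers, which took the median of all genes from 0.01 to 1.18, Fgf9 stood at 0.93 (SE 0.33) and Fgf13 at 0.98 (SE 0.32). Both values lie below the shifted median of all genes. The Müller glia and astrocyte markers had a median of 1.17, near the 1.04 of Fgfr1 and below the 1.43 of Fgf2. Within the naive libraries Fgf2 had the same order as these markers, lowest in replicate 1 and highest in replicate 2, while within SOHU the markers were highest in replicate 1 and Fgf2 in replicate 2. Other lists had medians of 0.99 (vascular), 1.75 (microglia and macrophage), -0.73 (amacrine and horizontal) and -0.44 (bipolar). Those of rod, fibroblast, lens and pigment epithelium markers were 0.08, 0.11, -0.28 and 0.18. Nearness to a list median therefore does not assign a member to a cell type. The part of cell share in these differences was not tested.

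**Figure D4:**
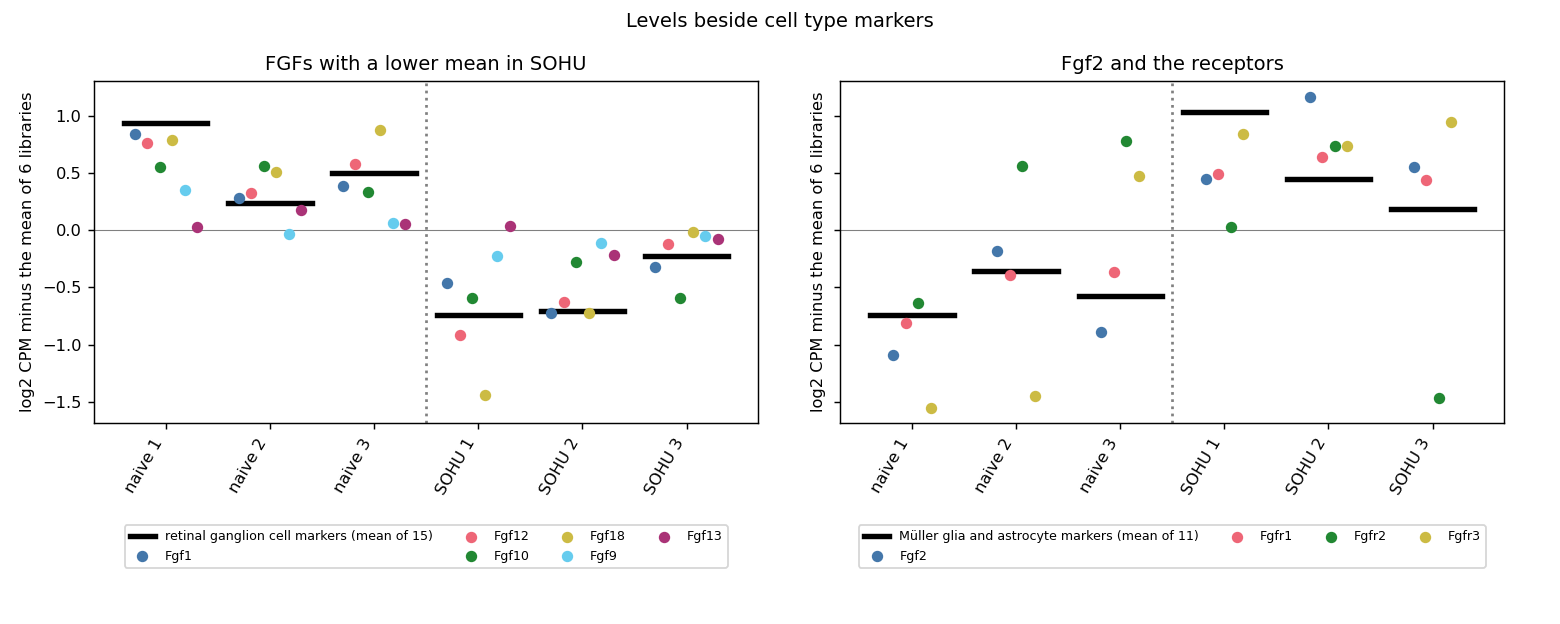
Log2 CPM of each member minus its mean over the 6 libraries (points), under TMM scaling, beside the mean of the same measure over 15 ganglion cell markers (left) or 11 Müller glia and astrocyte markers (right, black bars). Fgf1 and Fgf12 lie near the ganglion cell bar in every library, while Fgf9 and Fgf13 stay nearer to 0 and Fgfr2 follows no group.

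Of 10456 other genes, each averaging 3 or more in log2 CPM, the 4 whose profile over the 6 libraries was nearest to Fgf12 were Rab33a, Kcnab2, Caln1 and Atp6v1g2. Likeness was measured as the root mean square difference of log2 CPM after subtracting each gene's mean, and was 0.0323, 0.0378, 0.0464 and 0.0491. Rab33a had 40.2, 30.7 and 35.3 CPM in naive and 12.3, 15.7 and 21.1 CPM in SOHU libraries, in the same order of libraries within each group as Fgf12. Kcnab2 encodes a potassium channel subunit and Atp6v1g2 a proton pump subunit. The nearest to Fgf2 were Nfkbiz, Cebpb, Cp and Tspo, at larger differences of 0.144, 0.159, 0.169 and 0.190. Nfkbiz encodes a nuclear protein of the family of NF-kappaB inhibitors. It had 5.27, 12.1 and 7.56 CPM in naive and 14.5, 28.7 and 18.7 CPM in SOHU libraries, highest in replicate 2 of each group as Fgf2 was. Since Rab33a and Nfkbiz were picked for their profiles, the shared order of libraries is no separate evidence of likeness. Cp encodes ceruloplasmin, a copper-carrying iron oxidase. Cebpb, Tspo, Atp6v1g2 and Cp share 20.7, 5.04, 5.74 and 1.13% of their exon bases with Tmem189, Mcat, Nfkbil1 and Hps3 on the other strand, which makes them uncertain to that degree. Among the members, the nearest pairs were Fgf9 with Fgf13 (0.197) and Fgf1 with Fgf12 (0.225).

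The other genes of the pathway were taken from 6 lists, in which 91 of 102 genes found were tested. Of these, 13 were higher and 6 lower past the threshold, beside 8.02% and 5.93% of all genes. Among 9 tested FGF family genes outside the members, Fgfrl1 rose and Fgf22 fell. Fgfrl1, a receptor without a kinase domain, had 13.6, 21.9 and 22.9 CPM in naive and 62.4, 49.96 and 43.3 CPM in SOHU libraries (log2 fold change 1.42, SE 0.22, edgeR adjusted p = 0.0112). Its level per length, 20.99 ± 5.96 TPM in naive and 54.6 ± 7.66 TPM in SOHU libraries (SD, n = 3 each), was above that of Fgfr1 in all 6 libraries. Fgf22, a ligand known to organise synapses, fell by 0.88 on the log2 scale (SE 0.23, adjusted p = 0.0372), but had a value of 0.30 when scaled to ganglion cell markers. It overlaps Rnf126, which had 3151 reads against 1378 for Fgf22, on the opposite strand. The list's median was -0.51, with -0.24 without SOHU replicate 2 and -0.80 without SOHU replicate 3, and Fgf4 and Fgf16 had no read in any library.

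Genes that shape ligand binding moved in both directions. Sulf1, an extracellular enzyme that strips 6-O-sulfate from heparan sulfate, rose from 55.9 ± 18.3 to 157 ± 37.6 CPM (SD, n = 3 each; log2 fold change 1.49, SE 0.24, edgeR adjusted p = 0.0119). Hs6st2, which adds such sulfates, fell by 1.04 (SE 0.28, adjusted p = 0.0372), with a value of 0.15 when scaled to ganglion cell markers. The other 12 of 14 heparan sulfate enzymes did not pass, and the list's median of -0.08 ranged from -0.29 without SOHU replicate 1 to 0.07 without SOHU replicate 2, so it had no stable sign. Of 17 co-receptors and FGF-binding proteins tested, Sdc4 (1.37, SE 0.30, adjusted p = 0.0213, and 0.143 without the filter), a heparan sulfate carrier of the cell surface, Gpc4 (1.12, SE 0.33, adjusted p = 0.0492, and 0.0502 in limma-voom), a glypican, and Cdh2 (0.90, SE 0.17, adjusted p = 0.0155), N-cadherin, rose and none fell. Their list had a median of 0.21. Of all genes tested, 8.02% were higher and 5.93% lower past the threshold.

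Of 23 adaptors and genes of the RAS to ERK chain, 3 rose past the threshold and none fell. Over all genes tested, 8.02% were higher and 5.93% lower. Gab1, an adaptor of receptor kinases, rose from 38.3 ± 3.90 to 80.1 ± 12.4 CPM (SD, n = 3 each; log2 fold change 1.06, SE 0.16, edgeR adjusted p = 0.00993). Nras rose from 25.8 ± 0.587 to 52.9 ± 11.6 CPM (1.04, SE 0.17, adjusted p = 0.0119), and Mapk3, the gene of ERK1, rose by 0.44 on that scale (SE 0.12, adjusted p = 0.0377), which was lost without the filter on low counts (adjusted p = 0.0791). The main adaptor gene Frs2 had a value of 0.29 (SE 0.21, adjusted p = 0.386) and its paralogue Frs3 of -0.68 (SE 0.25, adjusted p = 0.0985). The list's median was 0.07, and -0.0074 without SOHU replicate 2.

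Among 18 targets and feedback inhibitors tested, 5 rose and none fell, beside 8.02% higher and 5.93% lower of all genes tested. The list median of 0.54 was 0.20 without SOHU replicate 1. Of the genes of this list that did not pass, Dusp6, Etv1, Etv4, Etv5, Egr1 and Myc were highest in that library. Spry1, Spred1, Ccnd1 and Fosl1, which passed, were highest there too. Spry1, a Sprouty inhibitor of the pathway, had 13.98, 21.5 and 18.6 CPM in naive and 50.6, 34.9 and 38.5 CPM in SOHU libraries (log2 fold change 1.20, SE 0.21, edgeR adjusted p = 0.0124). On the log2 scale Spry2 rose by 0.98 (SE 0.25, adjusted p = 0.0312), Spred1, a related inhibitor, by 0.48 (SE 0.13, adjusted p = 0.0423, and 0.0575 without the filter) and the cyclin gene Ccnd1 by 0.90 (SE 0.21, adjusted p = 0.0258). Fosl1, a gene of the AP-1 family, rose by 1.63 (SE 0.39, adjusted p = 0.0269) from a naive mean of 0.835 CPM. The classic targets Dusp6 (0.84, adjusted p = 0.0511), Etv5 (0.60, adjusted p = 0.118), Etv4 (0.87, adjusted p = 0.279), Etv1 (0.12, adjusted p = 0.732) and Spry4 (-0.05, adjusted p = 0.876) did not pass. Dusp6 had 76.4 CPM in SOHU replicate 1 and 41.8 and 40.2 CPM in the other SOHU libraries, against 26.7 to 34.6 CPM in naive. Fosl1 shares 57.2% of its exon bases with Ccdc85b, which had 22960 reads against 243, and Ccnd1 shares 23.4% with LTO1, so both are uncertain. Other pathways also raise these genes, and the cells they come from were not separated here.

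The list of partners of the intracellular FGFs held sodium channel genes and the scaffold gene Mapk8ip2. Among them, Scn2b, Scn3b and Scn4b encode beta subunits of the channel, which are not the part whose tail these FGFs bind. The list had a median of -0.85, and 4 of 10 fell under TMM scaling, beside 5.93% of all genes tested. Scaled to ganglion cell markers, where the list median was 0.30, none fell, and only 2 of all 17687 genes tested did. Scn1a fell from 170.4 ± 35.8 to 76.1 ± 20.8 CPM (SD, n = 3 each; log2 fold change -1.16, SE 0.21, edgeR adjusted p = 0.0143) and Scn4b by 1.43 (SE 0.26, adjusted p = 0.0137). Scn3a (-0.78) and Mapk8ip2 (-0.77) also fell, while Scn2a (-0.87, adjusted p = 0.0633) and Scn8a (-0.62, adjusted p = 0.0600) did not pass. All 10 had negative values under TMM scaling, as Fgf12 had. So had Fgf11, Fgf13, Fgf14 and all 15 ganglion cell markers, and the sign is thus not particular to this list.

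**Figure D5:**
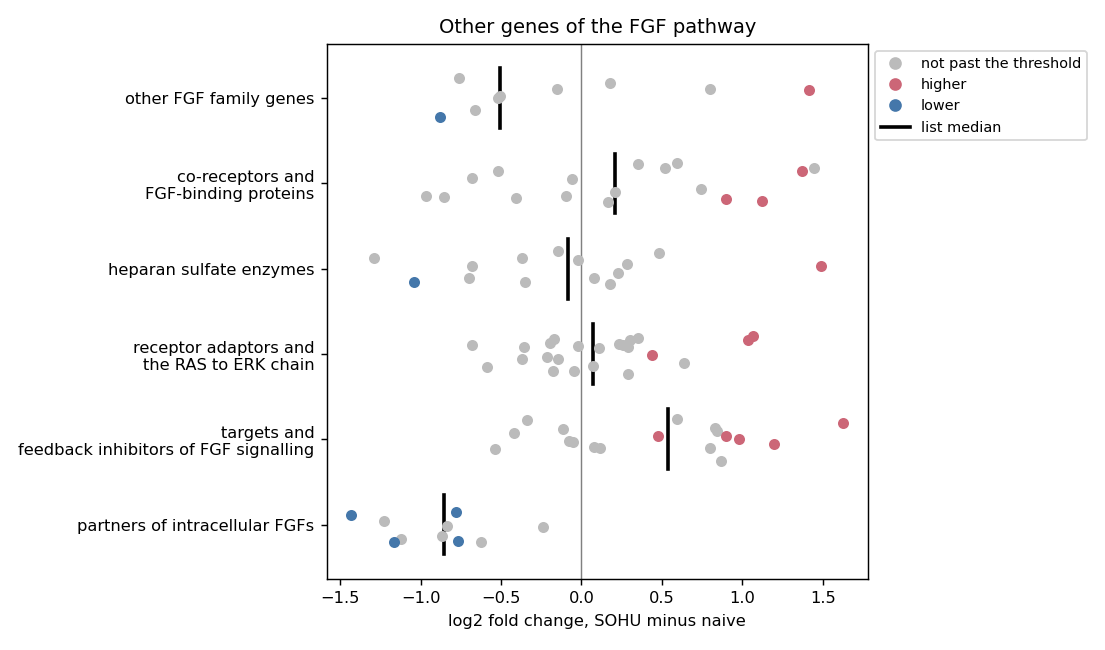
Log2 fold change (SOHU minus naive, TMM scaling, x axis) of each tested gene in 6 lists of the FGF pathway, with the list median as a black bar, and genes past the threshold in red (higher) or blue (lower). Targets and feedback inhibitors have 5 red points and no blue one. Partners of intracellular FGFs, a list that includes channel beta subunits, have 4 blue points and no red one. Over all genes tested, 8.02% were higher and 5.93% lower. Scaled to ganglion cell markers, no gene of any of these lists is called lower, and only 2 of all 17687 genes tested are.

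The calls depended on single libraries. Without naive replicate 1, or without naive replicate 3, edgeR called none of the members, none of the pathway genes and none of all genes, while 6 and 7 members, 31 and 34 pathway genes and 3919 and 4251 of all genes had an unadjusted p under 0.05. Without SOHU replicate 2 only Fgfr1 of the members and 5 pathway genes passed. Without naive replicate 2 the numbers were 4 and 10, without SOHU replicate 1 they were 4 and 16, and without SOHU replicate 3 they were 6 and 36. The directions held in all 6 omissions for each member but Fgfr2, with log2 fold changes of -1.11 to -0.84 for Fgf1, 1.19 to 1.76 for Fgf2, -1.32 to -0.93 for Fgf12, 0.90 to 1.11 for Fgfr1, -1.10 to -0.92 for Fgf10 and -1.84 to -1.10 for Fgf18.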

How the data were processed

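RNA from an anti-HA pull-down of retina was measured in 3 naive and 3 SOHU libraries, grouped by title. Raw counts of reads for each gene were deposited by the authors, and the joint table equalled the 6 single files. The build was mm10, with featureCounts, HISAT2, HISAT, Trim Galore, MultiQC and bcl2fastq 2.17 named in the submitters' processing notes; the sources used here give no settings, annotation release or strand use. Symbols came from GENCODE M21 (55154 of 55335 identifiers matched, and 1 of 205 list symbols, Spry3, was not found), and promoters from RefSeq.

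Genes were filtered with filterByExpr, scaled by TMM and tested in edgeR 4.0.16 by quasi-likelihood (R 4.3.3, robust, group only), with Benjamini-Hochberg adjustment over 17687 genes and a threshold of 0.05. SE is the log2 fold change divided by the root of the F statistic. TPM was computed from counts and the exon lengths in the files. Alternatives were DESeq2 1.42.0, limma 3.58.1 (voom), DESeq2 size factors, no filter, scaling to ganglion cell markers, a replicate block and each library left out. Members, gene lists and tests were chosen with earlier results of these data known. The text names all members, every list gene past the threshold, up to 4 genes a list with the smallest p, the 4 genes most like the member with the highest and the lowest change (mean log2 CPM of at least 3, prior count 2) and genes sharing exons with these. Further examples, such as Etv4, Spry4, Frs2 and Fgf14, were named after their values were seen. A gene of the list of intracellular FGF partners is not reported here and stands in none of its counts.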

Additional observations from a re-analysis of the deposited data

How the results depend on the processing

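DESeq2 size factors in edgeR, limma-voom and the omission of the filter left the direction and the side of the threshold of all 10 members as they were, and so did DESeq2, which called 3775 genes in place of 2467 and 30 of the pathway genes in place of 19. Scaling to the ganglion cell markers, which assumes that these markers are equal in both groups, took the number of genes called to 12771 (12769 higher and 2 lower, against 1418 and 1049) and of pathway genes to 61. In that scaling the log2 fold change turned positive for Fgf1 (0.18), Fgf9 (0.93), Fgf10 (0.19), Fgf12 (0.076), Fgf13 (0.98) and Fgfr2 (0.84) among the members, and for Fgf22 (0.30), Hs6st2 (0.15), Mapk8ip2 (0.38), Scn1a (0.0037) and Scn3a (0.36). There Fgfr3, Fgf9 and Fgf13 passed on the higher side. This scaling used summed reads, in which abundant markers such as Nefl and Sncg weigh most. Under TMM these 2 stood at -1.23 and -1.32, below the marker median of -1.08. Values near 0 in this scaling, such as those of Fgf1, Fgf10, Fgf12 and Scn1a, therefore have no settled sign. Leaving out 1 library at a time gave 0 to 3896 genes, 0 to 6 members and 0 to 36 pathway genes past the threshold; Fgfr2 ranged from -0.90 without SOHU replicate 2 to 0.086 without SOHU replicate 3. Fewer libraries were used in these fits, and the cause was otherwise not tested. The labels do not say whether replicate numbers pair the libraries. Same-numbered libraries correlated at 0.126, 0.303 and 0.0098 in their deviations from the group means over 10929 genes. Naive replicate 1 correlated best with SOHU replicate 3 (0.159), and naive replicates 2 and 3 with SOHU replicate 2 (0.303 and 0.153). These values cannot decide on pairing, since deviations from a mean of 3 libraries depend on each other. With the replicate block 2070 genes, 5 members and 16 pathway genes passed, and Fgf10 (adjusted p = 0.052), Fgf22 (0.0611), Gpc4 (0.0631), Hs6st2 (0.0535), Mapk3 (0.0742) and Spred1 (0.062) did not. Gpc4 was also lost in limma-voom (0.0502), and Mapk3 (0.0791), Sdc4 (0.143) and Spred1 (0.0575) without the filter. With 4 to 31 reads a library, the depth limits what can be said of Fgfr3.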
